A study of Mus musculus with 9 samples.

Results

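Acetylcholine signalling was followed through 10 genes: Chat, Slc5a7 and Ache, which make, recycle and break down the transmitter, the muscarinic receptor genes Chrm1, Chrm2, Chrm3 and Chrm4, and the nicotinic receptor subunit genes Chrna4, Chrna7 and Chrnb2. They were chosen as a functional group, and all probe sets that the platform annotation gives to 1 of these genes alone were taken: 15 of 45037 probe sets, for 9 of the 10 genes. No probe set carried the name Chrm2 in the annotation used, so Chrm2 was not analysed here. RefSeq (GRCm38.p6) places Chat on chromosome 14, Slc5a7 on 17, Ache on 5, Chrm1 on 19, Chrm3 on 13, Chrm4 and Chrna4 on 2, Chrna7 on 7 and Chrnb2 on 3. A probe set is a group of array probes that together report 1 transcript, and its value is given here as log2 intensity, so a difference of 1 is a 2-fold change.

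The arrays held RNA from brain hemispheres, without the cerebellum, of untreated adult male mice aged 11 ± 1 weeks, in 3 groups of 3 Affymetrix Mouse Genome arrays each. The first group is a line whose name, by mouse nomenclature, stands for a C57BL/6By background that received BALB/c DNA; it is called B6By.C in the text, and the figures carry the full name with the line number. The others are the inbred strains BALB/cJ, of the donor type, and C57BL/6ByJ, of the background type. Each array held a pool of 10 hemispheres, with 30 mice per strain and 90 in all, so the replicate error given here is an error of pools and does not describe single mice. In pooled whole-hemisphere RNA, fewer cells of a type and less RNA per cell cannot be told apart. The probe sets were not checked for sequence differences between the strains under their probes. A strain difference given here is therefore one of signal, and need not be one of RNA amount. The donor segments of B6By.C were not analysed here.

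Acetylcholine is made from choline and acetyl-CoA by choline acetyltransferase (Chat), loaded into vesicles by the vesicular transporter Slc18a3, and hydrolysed in the synaptic cleft by acetylcholinesterase (Ache), after which the high-affinity transporter Slc5a7 returns the choline to the nerve ending. In the forebrain the neurons that do this are a sparse population, found in the basal forebrain and as striatal interneurons, while their targets, which carry the receptors, are widespread. Muscarinic receptors act through G proteins: Chrm1 and Chrm3 through the Gq class, Chrm2 and Chrm4 through the Gi/o class. Nicotinic receptors are ion channels of several subunits; Chrna4 and Chrnb2 form the most common heteromeric type of the brain, and Chrna7 forms a homomeric type with high calcium permeability.

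The marker genes of the tissue were checked first. All 10 neuron markers lay above the median level of all probe sets, which was 3.968, with Snap25 at 10.98 and Syt1 at 11.0 as means over the 9 arrays. Of 8 cerebellum markers 5 lay below that median, among them Gabra6 (3.24) and Pcp2 (3.75). Calb1 (8.82), Zic1 (7.69) and Cbln1 (6.59) lay above the median, so that list was split. Of 5 skeletal muscle markers, genes of the tissue where muscle-type nicotinic receptors are found, 4 lay below it. Of 83 markers in 11 lists, 1 was higher and 4 were lower in BALB/cJ than in C57BL/6ByJ, 3 were higher and 2 lower in B6By.C than in BALB/cJ, and 0 passed between B6By.C and C57BL/6ByJ (limma, adjusted p under 0.05 by the brightest probe set). Of all genes 0.451% were higher and 0.874% lower in the first of these comparisons, 0.588% higher and 0.517% lower in the second, and 0.0% passed in the third. A mean under 3.968 is called near background here, because a signal in the lower range of the array cannot be told from nonspecific hybridisation in these files. On 1 array, replicate 3 of B6By.C, the log2 values were less spread out than elsewhere (interquartile range 2.73, against 2.84 to 2.98 on the other 8 arrays), and it is named where a value turns on it.

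No strain difference passed the test in any of the 15 probe sets. Each pair of strains was compared with the moderated test of limma over all 45037 probe sets (Benjamini-Hochberg adjusted p under 0.05). The count was 0 of 15 for B6By.C against BALB/cJ, where 1.28% of all probe sets passed. It was 0 of 15 for B6By.C against C57BL/6ByJ, where 0.0% passed, and 0 of 15 for BALB/cJ against C57BL/6ByJ, where 1.43% passed. At 1.43% or less of all probe sets, a count of 0 among 15 is near the background and is no result about these genes. The lowest limma adjusted p among the 15 was 0.782 for B6By.C minus BALB/cJ, 0.915 for B6By.C minus C57BL/6ByJ and 0.750 for BALB/cJ minus C57BL/6ByJ. An F test over the 3 strains gave 0 of 15 as well (lowest adjusted p = 0.856; 1.28% of all probe sets passed). With the replicate number as a block in the model the counts were again 0 of 15 in each pair, where 1.85%, 0.0% and 2.12% of all probe sets passed. At an unadjusted p under 0.05 (limma) the counts were 0, 1 and 0, where 7.5%, 3.89% and 7.58% of all probe sets passed. With the block they were 0, 3 and 0, where 11.0%, 7.44% and 10.9% passed, and the 3 were Chrna4 probe set 2 (unadjusted p = 0.0118), Slc5a7 (0.0240) and Chrna7 probe set 1 (0.0280), each with a limma adjusted p of 0.658. The 15 differences lay between -0.27 and 0.20 for B6By.C minus BALB/cJ, between -0.40 and 0.24 for B6By.C minus C57BL/6ByJ, and between -0.13 and 0.27 for BALB/cJ minus C57BL/6ByJ. Their medians were -0.01, 0.02 and 0.05, beside -0.02, -0.01 and 0.02 over all probe sets. All 15 of the 95% confidence intervals lay within 1 log2 unit of 0 in each comparison, and 13 of 15 lay within 0.5. An adjusted p above the threshold does not show that the strains were alike, and these intervals state how large a difference in signal remains possible.

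**Figure D1:**
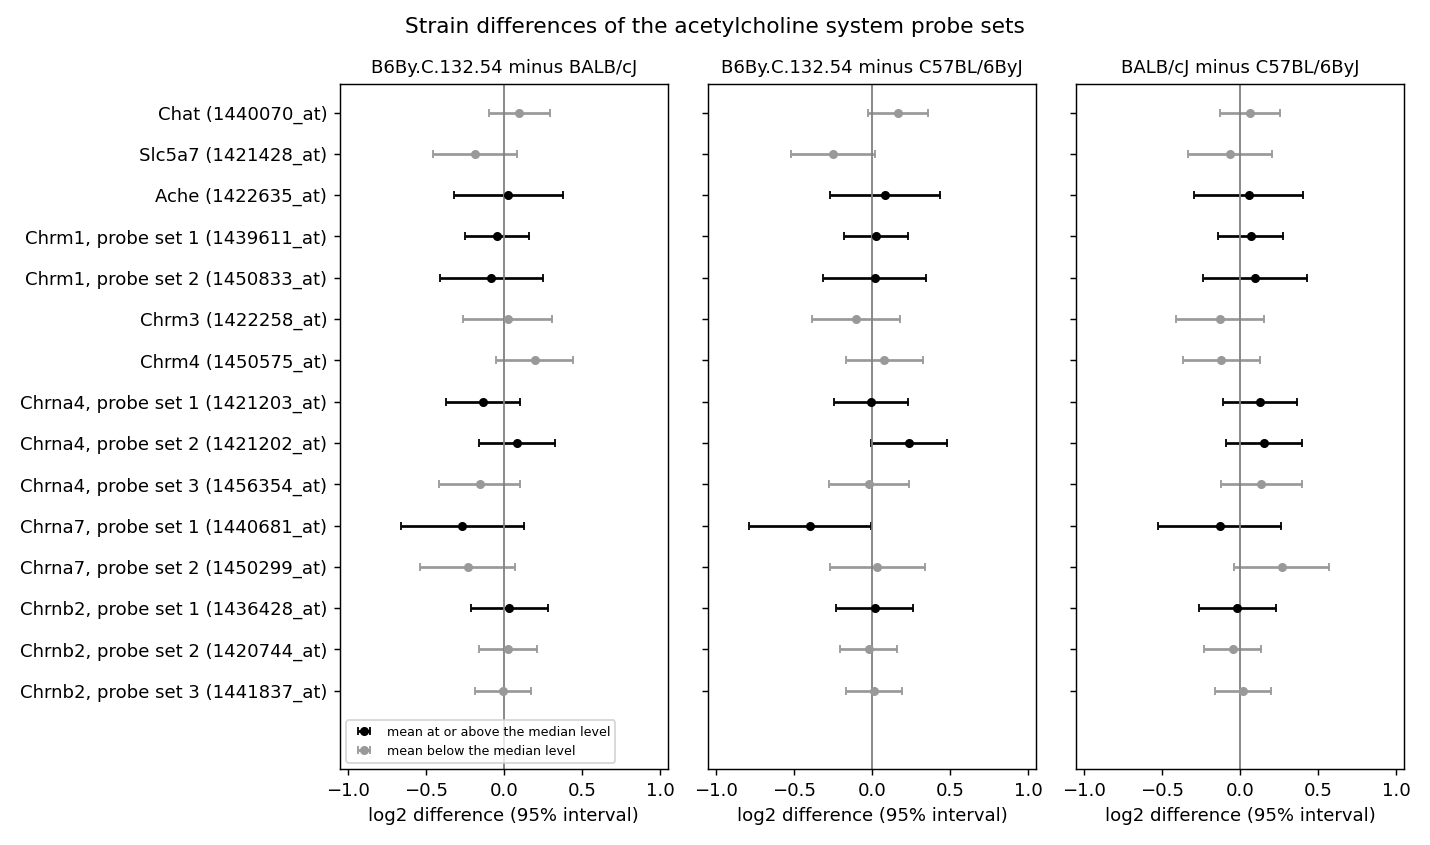
Log2 differences between strains for the 15 probe sets (points) with their 95% confidence intervals from limma (bars, not adjusted for the number of probe sets), in 3 panels, 1 per pair of strains. Grey points are probe sets with a mean below 3.968; all intervals lie within 1 log2 unit of 0, and the interval that reaches farthest from 0 is that of Chrna7 probe set 1 for B6By.C minus C57BL/6ByJ.

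Signal near background limited 4 of the 9 measured genes entirely: Chat, Slc5a7, Chrm3 and Chrm4 each had 1 probe set, and its mean lay below 3.968. The other 5 genes had at least 1 probe set above it: Ache, Chrm1, Chrna4, Chrna7 and Chrnb2. In all, 7 probe sets lay above and 8 below. Of the 15 probe sets, 9 had exactly the same deposited value on at least 2 arrays, so their spread is partly set by repeated values. Where a gene had several probe sets they are numbered from the brightest, and the figures' axes carry their names.

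**Figure D2:**
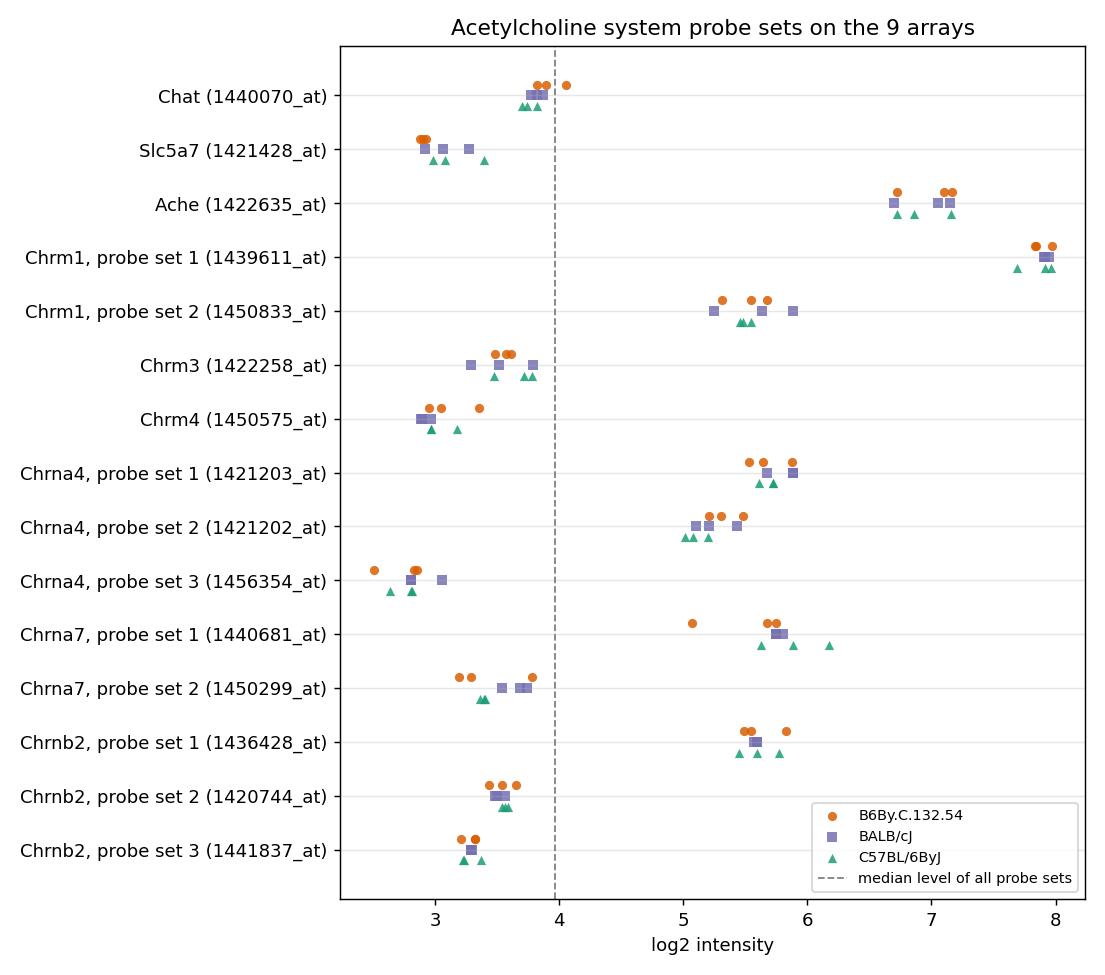
Log2 intensity of each of the 15 probe sets on the 9 arrays, 1 row per probe set and 1 point per array, with strains by colour and symbol. The dashed line is the median level of all probe sets (3.968); the groups of 3 overlap in nearly every row, and a single array of Chat is to the right of the line among the 4 genes named near background.

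Among the genes of the cholinergic nerve ending, Chat, the defining gene of cholinergic neurons, read 3.82, 4.05 and 3.89 on the B6By.C arrays, 3.82, 3.87 and 3.77 on those of BALB/cJ and 3.82, 3.70 and 3.74 on those of C57BL/6ByJ (replicates 1, 2 and 3 in each). The replicate 1 arrays of all 3 strains held the identical value, and B6By.C replicate 2 was the 1 array above the median level. The log2 difference of B6By.C minus C57BL/6ByJ was 0.17 ± 0.0875 (SE), which did not pass (limma adjusted p = 0.915), and the groups overlapped at the shared value.

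Slc5a7, the choline transporter, read 2.92, 2.88 and 2.90 on the B6By.C arrays, 3.07, 2.92 and 3.27 on those of BALB/cJ and 3.08, 2.98 and 3.40 on those of C57BL/6ByJ. The 3 arrays of B6By.C lay below all 3 of C57BL/6ByJ and overlapped with BALB/cJ by 1 array. The difference between B6By.C and C57BL/6ByJ was -0.25 ± 0.122 (SE; limma adjusted p = 0.915), and groups without overlap occurred in 6.62% of all probe sets in that comparison. Without C57BL/6ByJ replicate 3 the difference was -0.13, and with log2 of intensity plus 16 it was -0.09. All 9 values are near background.

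Ache, which hydrolyses acetylcholine, lay above the median level on every array. It read 6.72, 7.17 and 7.10 on the B6By.C arrays, 6.70, 7.15 and 7.05 on those of BALB/cJ and 6.73, 7.16 and 6.86 on those of C57BL/6ByJ. The strain means were 7.00 ± 0.241, 6.97 ± 0.239 and 6.91 ± 0.220 (SD, n = 3 each), so the strains differed by far less than the arrays of any strain did among themselves. The 95% interval for B6By.C minus C57BL/6ByJ ran from -0.27 to 0.44, and that for BALB/cJ minus C57BL/6ByJ from -0.30 to 0.41.

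The spread of Ache followed the replicate number. The replicate 1 arrays read 6.70 to 6.73 in the 3 strains, below all 6 others, which read 6.86 to 7.17. In 4.69% of all probe sets the replicate 1 arrays lay below every other array. With strain and replicate number in the same limma model, replicate 1 was 0.37 ± 0.073 (SE) lower than the mean of replicates 2 and 3 (-0.37 on the log2 scale, or 1.29-fold lower), with an adjusted p of 0.0213. This comparison was chosen after the values were seen. Of the 15 probe sets, 1 passed it (Ache), and of all probe sets 4.18% passed, 1.38% as lower, so 1 of 15 is near the background. The direction was the same in all 9 fits that leave out 1 array (-0.41 to -0.34). The call was lost without the replicate 1 array of B6By.C (adjusted p = 0.180), BALB/cJ (0.147) or C57BL/6ByJ (0.0891), without replicate 2 of BALB/cJ (0.0553) or C57BL/6ByJ (0.0559), and with quantile normalization (0.0573). What a replicate number stands for is not given in the labels. Summed intensity of the 10 neuron markers was 11340 to 12280 on the replicate 1 arrays and 9199 to 11540 on the others, with 2 of 10 called higher and 0 lower in replicate 1 (3.92% of all genes passed by their brightest probe set). For 9 striatal markers the sums were 2117 to 2341 on the replicate 1 arrays and 2006 to 2492 on the others, with 1 called each way. Their part in the Ache pattern was not tested.

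The promoter of Ache is printed because Ache was the 1 gene of the 10 whose probe set passed a test, that by replicate number. The sequence is that of the C57BL/6J reference from RefSeq (GRCm38.p6, plus strand, chr5:137288004-137288303, 250 bases before to 50 after a transcript start). Capitals mark the GC box letters GGGCGG or their complement CCGCCC, the hexamer bound by Sp-family factors, including overlapping matches.
Ache: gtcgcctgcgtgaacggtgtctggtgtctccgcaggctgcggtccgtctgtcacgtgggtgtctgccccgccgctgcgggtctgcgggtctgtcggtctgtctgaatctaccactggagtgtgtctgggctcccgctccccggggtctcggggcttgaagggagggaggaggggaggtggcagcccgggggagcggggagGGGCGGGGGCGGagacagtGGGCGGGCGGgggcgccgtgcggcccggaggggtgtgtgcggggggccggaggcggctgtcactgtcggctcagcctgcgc
The window holds 4 such matches and 30 CpG dinucleotides, and 35.7% of the 32851 promoter windows of the same length hold at least 1 match. A match describes the letters and says nothing about binding in these brains, and the sequence of the BALB/c allele was not read here.

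Of the muscarinic receptors, Chrm1, the main Gq-coupled subtype of cortex and hippocampus, had 2 probe sets. Probe set 1 read 7.84, 7.97 and 7.83 on the B6By.C arrays, 7.90, 7.92 and 7.95 on those of BALB/cJ and 7.69, 7.96 and 7.92 on those of C57BL/6ByJ. Its SD over the 9 arrays was 0.0894, the smallest of the 7 probe sets above the median level, and the groups overlapped in each comparison. The 95% intervals of its 3 differences ran from -0.25 to 0.27 at their widest. Probe set 2 read 5.31, 5.55 and 5.68 on the B6By.C arrays, 5.25, 5.64 and 5.89 on those of BALB/cJ and 5.46, 5.48 and 5.55 on those of C57BL/6ByJ. Its replicate 1 arrays (5.25 to 5.46) lay below the others (5.48 to 5.89), as in 4.69% of all probe sets, but that difference of -0.29 did not pass (limma adjusted p = 0.111).

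Chrm3, the other Gq-coupled receptor measured, lay between 3.29 and 3.79 on the 9 arrays, and Chrm4, the Gi/o-coupled receptor of striatal projection neurons, between 2.89 and 3.35. Both are near background on every array, so no statement on strain differences in these transcripts can be made from them. For Chrm4 the difference of B6By.C minus BALB/cJ was 0.20 ± 0.112 (SE; limma adjusted p = 0.782), and B6By.C replicate 3 gave the highest value. All 9 striatal markers with a probe set lay above the median level, and Drd2 averaged 5.71. Chrm3 read 3.29 to 3.48 on the replicate 1 arrays, against 3.52 to 3.79 on the others, a difference of -0.25 that did not pass (limma adjusted p = 0.145). Replicate 1 arrays lay below every other array in 4.69% of all probe sets.

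Chrna4, the alpha subunit of the heteromeric nicotinic receptor, had 3 probe sets, which did not give the same order of strains. Probe set 1 read 5.64, 5.88 and 5.53 on the B6By.C arrays, 5.88, 5.89 and 5.67 on those of BALB/cJ and 5.61, 5.73 and 5.73 on those of C57BL/6ByJ, with means of 5.68 ± 0.179, 5.81 ± 0.123 and 5.69 ± 0.0669 (SD). Probe set 2 read 5.21, 5.49 and 5.31 on the B6By.C arrays, 5.10, 5.43 and 5.21 on those of BALB/cJ and 5.01, 5.20 and 5.08 on those of C57BL/6ByJ. There the order was B6By.C, BALB/cJ, C57BL/6ByJ within each of the 3 replicate numbers, and the arrays of B6By.C did not overlap with those of C57BL/6ByJ. Groups without overlap occurred in 6.62% of all probe sets in that comparison. The share of probe sets that keep 1 order at every replicate number is not given here.

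For probe set 2 the difference between B6By.C and C57BL/6ByJ was 0.24 ± 0.111 (SE; limma adjusted p = 0.915, and 0.658 with the replicate number as a block), and between BALB/cJ and C57BL/6ByJ 0.15 ± 0.111 (adjusted p = 0.890, and 0.533 with the block). For probe set 1 these differences were -0.00457 and 0.13. The annotation gives both probe sets the same source sequence, and the higher reading of B6By.C was not shared between them. Probe set 3 lay between 2.51 and 3.05, near background.

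Chrnb2, the beta subunit that pairs with Chrna4, also had 3 probe sets. Probe set 1 read 5.55, 5.83 and 5.49 on the B6By.C arrays, 5.60, 5.60 and 5.57 on those of BALB/cJ and 5.45, 5.77 and 5.60 on those of C57BL/6ByJ. The strain means of 5.62, 5.59 and 5.61 differed by less than the SD of B6By.C (0.181) and of C57BL/6ByJ (0.162), while the 3 BALB/cJ arrays lay within an SD of 0.0147. The other 2 lay between 3.21 and 3.65 over all arrays, near background.

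Chrna7, the subunit of the homomeric receptor, held the largest strain difference of the 15 probe sets by size. Probe set 1 read 5.68, 5.75 and 5.07 on the B6By.C arrays, 5.80, 5.75 and 5.75 on those of BALB/cJ and 6.18, 5.62 and 5.89 on those of C57BL/6ByJ. The low value is B6By.C replicate 3, and the groups overlapped in both comparisons with C57BL/6ByJ. B6By.C minus C57BL/6ByJ was -0.40 ± 0.178 (SE; unadjusted p = 0.0482, limma adjusted p = 0.915), the 1 probe set of 15 with an unadjusted p under 0.05 without the block. Without B6By.C replicate 3 the difference was -0.18. Probe set 2, near background, read 3.29, 3.78 and 3.19 on the B6By.C arrays, 3.68, 3.54 and 3.74 on those of BALB/cJ and 3.39, 3.40 and 3.37 on those of C57BL/6ByJ. Here BALB/cJ lay above C57BL/6ByJ with no overlap (0.27 ± 0.138, SE; limma adjusted p = 0.750), which 12.6% of all probe sets did in either direction, while probe set 1 gave -0.13 for the same pair of strains. The probe sets of Chrna7 disagreed in direction between BALB/cJ and C57BL/6ByJ, and between B6By.C and C57BL/6ByJ (-0.40 and 0.03). For B6By.C minus BALB/cJ both had the same sign (-0.27, limma adjusted p = 0.831, and -0.23, adjusted p = 0.796), and neither passed. The lowest adjusted p of any probe set of the 10 genes over all alternatives was that of probe set 2 in this pair, 0.0957 without B6By.C replicate 2.

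The promoter of Chrna7 is shown because Chrna7 gave the largest strain difference of the 10 genes, which did not pass (C57BL/6J reference from RefSeq, GRCm38.p6, minus strand, chr7:63212477-63212776, capitals as for Ache).
Chrna7: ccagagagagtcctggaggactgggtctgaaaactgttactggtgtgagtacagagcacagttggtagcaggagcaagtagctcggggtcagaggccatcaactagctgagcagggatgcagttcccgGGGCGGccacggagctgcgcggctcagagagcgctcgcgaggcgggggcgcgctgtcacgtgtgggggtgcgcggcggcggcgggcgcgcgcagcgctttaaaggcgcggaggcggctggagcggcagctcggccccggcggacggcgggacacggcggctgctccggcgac
It holds 1 GC box match and 35 CpG dinucleotides, against a median of 7 CpG over all promoter windows.

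**Figure D3:**
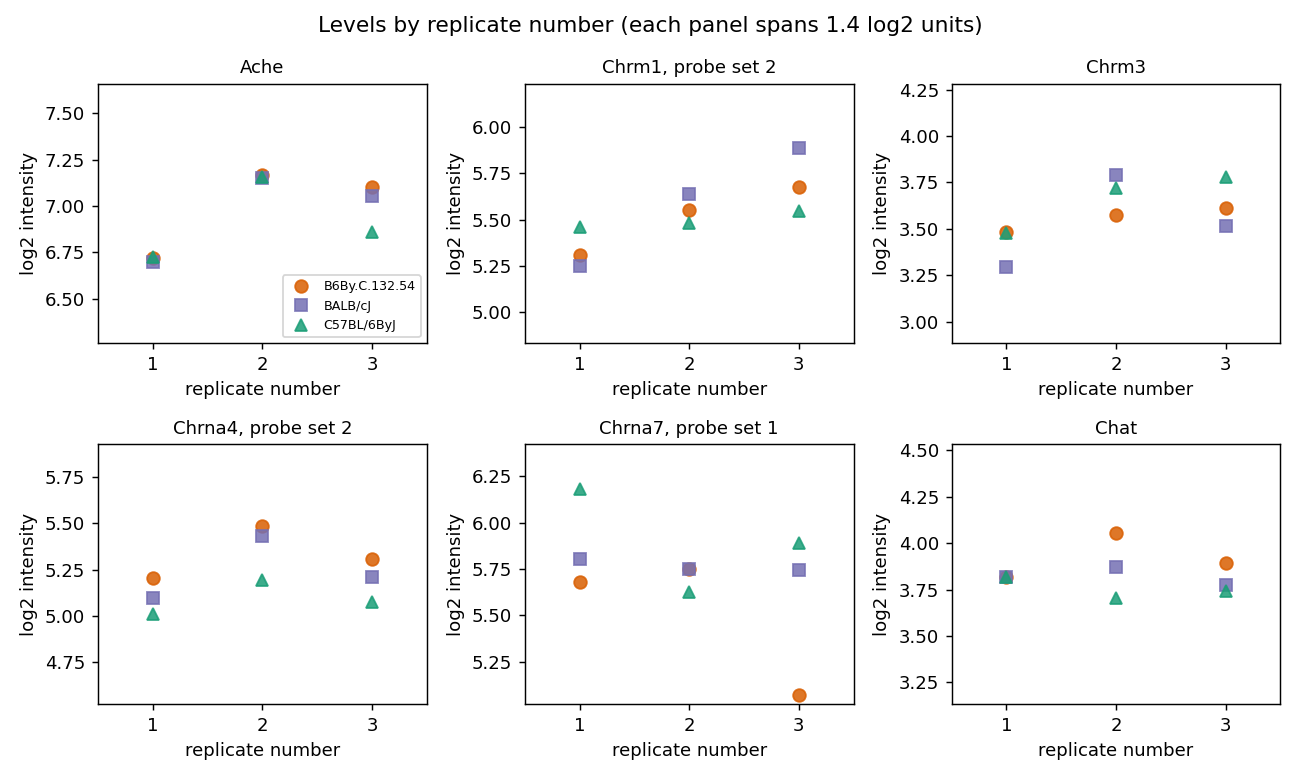
Log2 intensity by replicate number for 6 probe sets of the group, 1 point per array, strains by colour and symbol, each panel spanning the same width of log2 intensity. Ache reads 6.70 to 6.73 on the 3 replicate 1 arrays and 6.86 to 7.17 on the others; Chrna4 probe set 2 keeps 1 order of strains at each number; in Chrna7 the low point is B6By.C replicate 3.

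Since Chat, Slc5a7 and Slc18a3 are expressed by the same neurons, their levels were compared over the 9 arrays. Slc18a3, by its 1 probe set, read 2.76 to 3.17 and so was also near background. Chat and Slc5a7 gave a negative correlation (Pearson r = -0.59, exact permutation p = 0.0499; Spearman rho = -0.80, exact permutation p = 0.0132). Adjusted over the 3 pairs these p-values were 0.150 and 0.0397 (exact permutation tests, two-sided). The permutations treat the 9 arrays as exchangeable, though they fall into 3 strains and arrays with the same replicate number deviated together. The permutation p-values of this paragraph are therefore approximate. Without the 2 arrays farthest from the median of Chat r was -0.91, and with strain means removed it was -0.27, given as a description. A single strain or replicate number holds only 3 arrays, too few for a correlation of its own. Over the 9 arrays with the means of each replicate number removed r was -0.56 and rho -0.71 (adjusted permutation p = 0.375 and 0.114). Removing these means ties the values of a replicate number together, so that permutation test is not exact. With strain means removed as well r was 0.15, of the opposite sign, given as a description. The rank correlation also missed the threshold with quantile normalization and with array medians subtracted (rho = -0.72 in both, adjusted exact permutation p = 0.111). Chat and Slc18a3 gave r = 0.12 and rho = 0.18, and Slc5a7 and Slc18a3 r = -0.05 and rho = -0.26 (adjusted exact permutation p of 0.648 and 0.793 for rho and r in both). Without the 2 arrays farthest from the median of the first gene these r were -0.02 and -0.80. Of 11464 other genes above the median level, those most like Chat over the 9 arrays were Lmcd1 (r = 0.94), Ybx2 (r = 0.87) and Arrdc4 (r = 0.87), given as a description without a test, since they are the highest of so many.

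The wider pathway was read from 5 further lists of 64 genes, of which 55 had a probe set and 20 of these lay near background. By the brightest probe set of each gene, 2 of 55 were lower in BALB/cJ than in C57BL/6ByJ and 0 higher, where 0.874% of all 18193 genes were lower and 0.451% higher (limma, adjusted p under 0.05). In B6By.C, 1 was higher than in BALB/cJ and 0 lower, where 0.588% of all genes were higher and 0.517% lower. Between B6By.C and C57BL/6ByJ 0 passed in either direction, as did 0.0% of all genes. Counts of 1 or 2 among 55 are too few to be read against these shares. The median differences for BALB/cJ minus C57BL/6ByJ were 0.03 for the synapse genes, 0.01 for the other receptor subunits, -0.09 for the chaperones and Ly6 modulators, -0.05 for the muscarinic signalling partners and 0.03 for the cholinergic identity genes, beside 0.02 over all genes.

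**Figure D4:**
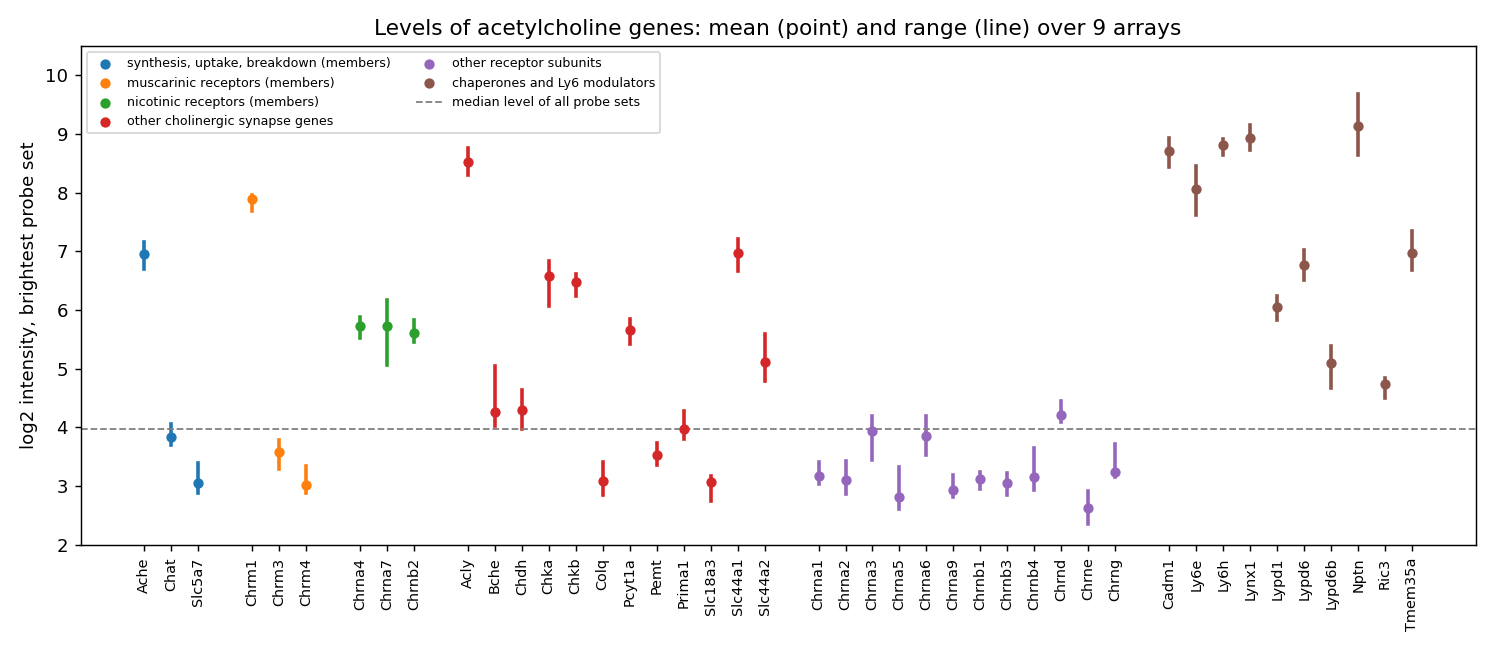
Log2 intensity of acetylcholine genes by the brightest probe set of each, grouped by list and in alphabetical order within a list, with the mean (point) and range (line) over 9 arrays. The dashed line is the median level of all probe sets (3.968); 11 of 12 receptor subunits outside the 10 genes have a mean below it and all 10 chaperones and Ly6 modulators lie above it. Heights of different probe sets are not amounts of RNA and cannot be ranked.

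The 2 genes lower in BALB/cJ by the brightest probe set were Lypd6 and Prkca. Lypd6, a Ly6-domain protein reported to modulate nicotinic receptors in mouse neurons, read 6.85, 6.88 and 6.74 on the B6By.C arrays, 6.51, 6.56 and 6.54 on those of BALB/cJ and 6.88, 7.02 and 6.98 on those of C57BL/6ByJ. BALB/cJ lay below all other arrays. Arrays of BALB/cJ and C57BL/6ByJ did not overlap, in either direction, in 12.6% of all probe sets. That condition leaves out the B6By.C arrays and is easier to meet, and the share with BALB/cJ below both other strains is not given here. The difference of BALB/cJ from C57BL/6ByJ was -0.42 ± 0.0812 (SE, limma adjusted p = 0.0277). Leaving out any single array of these 2 strains ended the call (adjusted p = 0.0531 without C57BL/6ByJ replicate 1 to 0.148 without C57BL/6ByJ replicate 2), and the other 2 Lypd6 probe sets, both near background, were not called.

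Prkca, protein kinase C alpha, is activated downstream of Gq-coupled receptors such as Chrm1. Its brightest probe set read 8.66, 8.71 and 8.63 on the B6By.C arrays, 8.14, 8.28 and 8.14 on those of BALB/cJ and 8.63, 8.77 and 8.68 on those of C57BL/6ByJ. It was lower in BALB/cJ than in C57BL/6ByJ (-0.51 ± 0.083, SE; limma adjusted p = 0.0100) and higher in B6By.C than in BALB/cJ (0.48, adjusted p = 0.0154), 2 comparisons that share the BALB/cJ arrays. The 2 other Prkca probe sets, with means of 5.68 and 4.17, were not called. They gave -0.09 and 0.008 for BALB/cJ minus C57BL/6ByJ (limma adjusted p = 0.966 and 0.997). For B6By.C minus BALB/cJ they gave 0.07 and -0.003 (limma adjusted p = 0.940 and 0.999). The probe sets disagree, so no strain difference is given for the gene. The call of BALB/cJ against C57BL/6ByJ ended when replicate 1 or 3 of BALB/cJ was left out (adjusted p = 0.0527 and 0.0525) and when C57BL/6ByJ replicate 2 was (0.0639). That of B6By.C against BALB/cJ ended with the omission of B6By.C replicate 1 (0.0558) or 2 (0.0582), and with that of replicate 1 (0.0762) or 3 (0.0768) of BALB/cJ. It also ended in a fit of only the 6 arrays of these strains (0.0617).

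Lypd1, another Ly6-domain modulator of nicotinic receptors in mouse, was called by 1 of its 2 probe sets. The brighter one, with a mean of 6.05, gave 0.03 for BALB/cJ minus C57BL/6ByJ (limma adjusted p = 0.995). The other, with a mean of 4.36, read 4.65, 4.58 and 4.43 on the B6By.C arrays, 3.95, 3.91 and 3.95 on those of BALB/cJ and 4.62, 4.46 and 4.67 on those of C57BL/6ByJ. All BALB/cJ arrays lay below the others there. The 3 BALB/cJ readings also lay under the median level of 3.968, in the range called near background, so the size of the difference is uncertain. Arrays of BALB/cJ and C57BL/6ByJ did not overlap, in either direction, in 12.6% of all probe sets. That condition leaves out the B6By.C arrays and is easier to meet than the one seen here. BALB/cJ was at -0.64 against C57BL/6ByJ (limma adjusted p = 0.00345), and B6By.C was 0.62 higher than BALB/cJ (adjusted p = 0.00479). Both calls were kept when any single array was left out. The probe sets disagree, so no strain difference is given for the gene.

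Some markers of cell types moved with the same pairs of strains. For BALB/cJ minus C57BL/6ByJ the markers that passed were Gfap of astrocytes (0.92, limma adjusted p = 0.00393), Slc17a7 of excitatory neurons (-1.45, 0.00272), C1qb (-0.75, 0.0193) and C1qc (-0.75, 0.00943) of microglia and Cldn5 of endothelium (-0.54, 0.0466). For B6By.C minus BALB/cJ they were Slc17a7 (1.24, limma adjusted p = 0.00880), C1qb (0.88, 0.00674), C1qc (0.83, 0.00475), Gfap (-0.71, 0.0238) and Rgs5 of pericytes (-0.56, 0.0361). Per pair, 1 of 8 astrocyte, 1 of 8 excitatory, 2 of 8 microglia and 1 of 7 endothelium and pericyte markers passed. The others of these lists did not, so these calls are not read as changes of a cell type. C1qb (3 probe sets) and Rgs5 (4) had no probe set called besides the brightest. Of Gfap 2 other probe sets were called in at least 1 pair, and Slc17a7, C1qc and Cldn5 had 1 probe set each. The summed intensity of the 10 neuron markers, of which 0 were called, was 9199 to 11340 in B6By.C, 10370 to 12060 in BALB/cJ and 10690 to 12280 in C57BL/6ByJ. That of the microglia markers was 1225 to 1423, 1121 to 1279 and 1232 to 1356 in the same order of strains, that of the cortical and hippocampal excitatory markers 2496 to 2975, 2606 to 2757 and 2628 to 3094, and that of the endothelium and pericyte markers 771 to 926, 898 to 954 and 920.5 to 954.5. Astrocyte markers summed to 6189 to 7157 in B6By.C and to 6724 to 6817 in BALB/cJ, where all 3 BALB/cJ sums lay below those of C57BL/6ByJ (6911 to 7229). All these sums are of linear intensity, so the brightest markers weigh most, here Aldoc (mean 11.48) and Slc1a2 (11.04). For BALB/cJ minus C57BL/6ByJ Aldoc gave -0.18 and Slc1a2 -0.03, and neither passed by its brightest probe set, while Gfap was higher. The sums do not measure the number of astrocytes, and how often such sums do not overlap in other lists is not given. The part of these markers in the Lypd6, Prkca and Lypd1 differences was not tested.

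With the replicate number as a block, Ly6e, a membrane-anchored protein of the Ly6 family, passed as well. It read 8.27, 8.45 and 8.01 on the B6By.C arrays, 7.72, 7.79 and 7.62 on those of BALB/cJ and 8.27, 8.37 and 8.13 on those of C57BL/6ByJ. BALB/cJ was lower than C57BL/6ByJ by its brightest probe set (-0.55; limma adjusted p = 0.0525, and 0.00576 with the block), and B6By.C was 0.54 higher than BALB/cJ (0.0641, and 0.00702 with the block). Over the alternatives these adjusted p-values lay between 0.00576 and 0.250 for the first pair and between 0.00702 and 0.270 for the second. With the block, 1.3% of all genes were lower in BALB/cJ than in C57BL/6ByJ, and 0.929% were higher in B6By.C than in BALB/cJ. The other Ly6e probe set gave -0.50 (adjusted p = 0.238) and 0.78 (0.0259) for these pairs, and the second call ended without B6By.C replicate 2 (0.105) or 3 (0.110) and without any 1 BALB/cJ array (0.0828 to 0.140).

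The remaining receptor subunits of the brain were near background. Means over the 9 arrays were 3.10 for Chrna2, 3.94 for Chrna3, 2.82 for Chrna5, 3.86 for Chrna6, 3.06 for Chrnb3 and 3.16 for Chrnb4, and Chrm5 had no annotated probe set. Over the 12 measured subunits of this list the difference between BALB/cJ and C57BL/6ByJ ran from -0.15 (Chrna5) to 0.17 (Chrng), and 0 of 12 passed in any comparison (lowest limma adjusted p = 0.655).

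Of the genes that handle acetylcholine and choline, Bche, the second cholinesterase, averaged 4.48 ± 0.486 over the B6By.C arrays, 4.11 ± 0.0729 over those of BALB/cJ and 4.23 ± 0.224 over those of C57BL/6ByJ (SD, n = 3 each). The high spread in B6By.C came from replicate 3, at 5.04. Prima1, the membrane anchor of brain acetylcholinesterase, averaged 3.98, 3.99 and 3.96 in the same order of strains. Slc44a2, a choline transporter-like protein, had the lowest p of its list between BALB/cJ and C57BL/6ByJ (4.95 ± 0.144 against 5.35 ± 0.232, SD; limma adjusted p = 0.548, and 0.0764 with the block). Colq, the collagen tail of acetylcholinesterase, followed at 3.17 against 2.96, near background (adjusted p = 0.825).

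The assembly factors of nicotinic receptors did not pass between strains. Ric3 averaged 4.66, 4.74 and 4.80, Tmem35a 6.95, 6.90 and 7.06, and Lynx1, an inhibitory Ly6 protein of nicotinic receptors, 8.88, 9.03 and 8.89 in B6By.C, BALB/cJ and C57BL/6ByJ. Tmem35a was higher on the replicate 1 arrays (0.38, limma adjusted p = 0.0145), opposite to Ache, and so was Nptn, the adhesion molecule neuroplastin (0.76, adjusted p = 0.000196). Of the 10 chaperones and Ly6 modulators these 2 were higher by replicate number and 0 lower, where 3.92% of all genes passed in either direction. Gnai2, a Gi protein alpha subunit, gave 0.20 for BALB/cJ minus C57BL/6ByJ (adjusted p = 0.650). Of the cholinergic identity genes, Isl1 gave 0.12 (adjusted p = 0.856) and Mnx1 0.31 (0.698) for that pair. Of the 7 measured genes of that list 6 were near background, Mnx1 and Lhx8 included.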

How the data were processed

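The table that the authors deposited gives each probe set an intensity per array, linear and already normalized; the software named in the submitters' processing notes is GCOS and RMA, and its versions and the background treatment are not given in the sources used here. Per the labels' protocols, 7 µg of total RNA went into each labelling reaction. The number of arrays limits the precision. The log2 of each deposited intensity was used, without a pseudocount or further normalization. Of 45101 probe sets 64 controls were left out. Of the rest, 34945 carry the name of 1 gene in the platform annotation, 932 of several genes and 9160 of none; symbols were updated by Entrez identifier through RefSeq (GRCm38.p6, 34741 matched).

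One mean per strain was fitted with limma 3.58.1 (R 4.3.3; lmFit and eBayes, 6 residual and 4.823 prior degrees of freedom), two-sided, with Benjamini-Hochberg adjustment over 45037 probe sets. Replicates are separate pools by their labels. Arrays with the same replicate number deviated together from their strain means (r from 0.147 to 0.542 in all 9 pairs, against -0.458 to 0.153 in the 18 pairs with other numbers), so a fit with the replicate number as a block was run too. That pairing comes from the data: what a number stands for is not given. The fit was also run on simulated data, with independent errors per array and changes planted only in probe sets at or above the median level. That setting lacks the shared deviations by replicate number and does not cover probe sets near background. Members and lists were chosen with earlier results of these data known. Every probe set of the 10 genes is reported; in the wider lists, a fixed set of receptor subunits, cholinesterase and assembly genes, any gene called by a probe set and the 2 with the lowest p for BALB/cJ against C57BL/6ByJ are named. Genes like Chat are the 3 of highest r over the 9 arrays. Ly6e, Tmem35a and Nptn by replicate number, the markers named, and the replicate 1 comparison were chosen after their values were seen.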

Additional observations from a re-analysis of the deposited data

How the results depend on the processing

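The counts of 0 of 15 probe sets called, for each pair of strains and for the F test, were 0 under all alternatives run: quantile normalization, array medians subtracted, log2 of intensity plus 16, only the probe sets at or above the median level, an intensity trend with robust estimation, only the 6 arrays of a pair of strains (pairs only), each array left out in turn, and the replicate block. The lowest adjusted p over all 696 probe set differences recomputed under these alternatives was 0.0957 (limma; Chrna7 probe set 2, B6By.C minus BALB/cJ, without B6By.C replicate 2). With the replicate block the lowest adjusted p of the 15 was 0.493 for B6By.C minus BALB/cJ, 0.658 for B6By.C minus C57BL/6ByJ and 0.526 for BALB/cJ minus C57BL/6ByJ, so the block changed no call among them. Of the 696 values 50 changed sign, in differences of 0.13 or less in size. When a gene was read by the median of its probe sets, the Chrna4 difference between B6By.C and C57BL/6ByJ was 0.24 in place of -0.00457, that between B6By.C and BALB/cJ 0.09 in place of -0.13, and the Chrna7 difference between BALB/cJ and C57BL/6ByJ 0.07 in place of -0.13, and that between B6By.C and C57BL/6ByJ -0.18 in place of -0.40. For Chrna4 this median is the reading of probe set 2, the middle one by level on every array, and no summary over probe sets. For Chrna7 it takes in probe set 2, which is near background. With log2 of intensity plus 16 the difference of Slc5a7 between B6By.C and C57BL/6ByJ was -0.09 in place of -0.25, and that of Chrna7 probe set 2 between BALB/cJ and C57BL/6ByJ 0.11 in place of 0.27; with quantile normalization that of Chrnb2 probe set 2 for this pair was -0.08. Signal over background limits Chat, Slc5a7, Chrm3 and Chrm4.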
